A study of Homo sapiens with 6 samples.

Results

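The E2F, RB and B-MYB transcription regulators are described here through 10 genes, taken from the 28495 genes of the deposited table by matching Ensembl identifiers to symbols. They are the activator genes E2F1, E2F2 and E2F3, the dimer partner gene TFDP1, the repressor genes E2F4, E2F7 and E2F8, the pocket protein genes RB1 and RBL1, and MYBL2, which encodes B-MYB. All 10 were found, and all 10 passed the filter on low values (a mean of at least 0.5 FPKM over the 6 libraries). The rule names the genes and takes no measured value, but it was written with earlier results of these data known. Messenger RNA was sequenced from NCI-H1299, an established human line labelled as lung adenocarcinoma. There were 3 libraries of cells labelled as silenced for complement factor B (sh-CFB) and 3 of control cells (sh-NC). No label names the silencing sequences, the number of clones, the time after silencing or whether replicates were separate cultures, and p-values therefore measure the spread between these libraries, which may be technical. The sample titles speak of short hairpins while the column names are of a kind used for siRNA, and both groups carry a reagent of the same kind.

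E2F proteins bind DNA as dimers with a DP protein and control genes needed to enter S phase. In resting and early G1 cells the pocket proteins RB, p107 and p130 hold E2F proteins in check; cyclin-dependent kinases phosphorylate the pocket proteins and release the activator E2Fs. E2F7 and E2F8 bind DNA without a DP partner and without a pocket protein and lower E2F target genes later in S phase. B-MYB joins the MuvB complex after S phase has begun and, with FOXM1, drives genes of G2 and mitosis. Several of these regulators are themselves E2F targets.

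Promoter stretches of the genes are shown first because the family is known for E2F sites in its own promoters. They come from RefSeq on GRCh38.p14, which had windows of 250 bases before to 50 bases after a start for 9 of the 10 genes. The entry missing was E2F8. The RB1 window lies at an internal start 172724 bases inside the gene and was set aside, which left 8 genes. Also set aside was a further E2F3 window, at a start 1708 bases inside the gene. FPKM is given per gene, so E2F3 transcripts from these different starts are not told apart. Capitals mark matches, on either strand, to the 8-base words TTTGGCGC, TTTCGCGC, TTTGCCGC and TTTCCCGC or to the 7-base word GGCGGGA. These words were chosen with the sequences in view. The first 4 stretches and that of E2F4 cover the 120 bases before the RefSeq start, and those of TFDP1 and MYBL2 the 30 bases around a word. In order, they lie at chr20:33686386-33686505 (minus strand), chr1:23531234-23531353 (minus), chr6:20401759-20401878 (plus), chr20:37095998-37096117 (minus), chr16:67192035-67192154 (plus), chr13:113584622-113584651 (plus) and chr20:43667064-43667093 (plus).
E2F1: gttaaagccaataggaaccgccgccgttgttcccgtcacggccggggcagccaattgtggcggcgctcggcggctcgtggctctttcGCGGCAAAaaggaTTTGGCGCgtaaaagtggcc
E2F2: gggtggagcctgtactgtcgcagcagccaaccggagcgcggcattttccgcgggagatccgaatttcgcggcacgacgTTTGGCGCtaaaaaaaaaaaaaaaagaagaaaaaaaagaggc
E2F3: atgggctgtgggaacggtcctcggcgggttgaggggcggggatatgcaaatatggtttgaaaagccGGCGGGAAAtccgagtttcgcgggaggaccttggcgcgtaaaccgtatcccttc
RBL1: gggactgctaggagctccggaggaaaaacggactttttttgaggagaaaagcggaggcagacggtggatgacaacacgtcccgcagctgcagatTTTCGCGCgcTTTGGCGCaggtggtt
E2F4: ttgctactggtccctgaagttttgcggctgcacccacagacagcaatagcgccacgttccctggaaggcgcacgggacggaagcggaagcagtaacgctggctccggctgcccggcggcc
TFDP1: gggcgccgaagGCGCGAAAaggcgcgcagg
MYBL2: ccgacgcgcttGGCGGGAgatagaaaagtg

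An 8-base word was present in 5 of the 8 windows (E2F1, E2F2, E2F3, TFDP1 and RBL1), against 3.31% of all 35116 windows of the same length. E2F1 and RBL1 each held 2 such words, at -33 to -26 and -20 to -13 from the start in E2F1 and at -26 to -19 and -16 to -9 in RBL1. The word GGCGGGA was present in 5 of the 8 windows (E2F1, E2F3, TFDP1, RBL1 and MYBL2), against 15.4% of all windows; in E2F3 it overlaps an 8-base word. The windows of E2F4 and E2F7 held neither. Because the words were chosen with these sequences in view, these counts are a description and not a test. The shares over all windows were not matched for GC content. Other words searched were TTTGAA or TTCGAA, in 1 of the 8 windows (16.4% of all windows), and CCAAT, in 3 of the 8 (34.6%). A match describes letters and is not evidence of binding.

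The libraries held 26230379 to 40031649 recovered reads, the whole reads behind the FPKM values. CFB itself was near zero, with FPKM of 0, 0 and 0.0110 in sh-CFB, against 0.00536, 0.0317 and 0.0321 in sh-NC. That is 2 reads against 12 in all, with overlapping groups (p = 0.2, two-sided exact permutation test). Such counts check no single library's label and cannot show whether CFB was silenced. Of 25 listed markers of immune, fibroblast, endothelial, erythroid, alveolar and airway cells 18 were in the table and 0 reached a mean of 0.5 FPKM, and their summed level was 0.606 to 1.17 FPKM per library. Of 6 epithelial markers 3 reached it, led by KRT18, a keratin (173 ± 34.4 FPKM in sh-NC, SD, n = 3). The libraries called sh-CFB replicate 1 and sh-NC replicate 1 stood farthest apart on the first principal component (-0.74 and 0.60; 56.6% of the variance). Across genes, which are not independent, deviations in these libraries had Spearman correlations with GC content of 0.60 and -0.55. Results below are therefore also given without both of these libraries and after a correction for GC content and gene length.

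In sh-CFB 5 of the 10 regulators were lower, 0 were higher and 5 did not pass the test. Those that fell were the activators E2F1 and E2F2, the partner TFDP1, the repressor E2F4 and MYBL2, by between 1.55-fold and 1.98-fold on the scale of FPKM + 0.5. That scale understates the change of low genes: the log2 fold change of E2F2 was -0.97 on it and -1.14 with a pseudocount of 0.1. E2F3, E2F7, E2F8, RB1 and RBL1 did not pass. Among all 12466 genes tested, 5.71% were called lower and 1.74% higher, 7.45% in all (limma on log2(FPKM + 0.5), Benjamini-Hochberg adjusted p under 0.05). All 10 estimates were below 0, as were those of 8437 of the 12466 tested genes. The median log2 fold change of the 10 was -0.64, beside -0.15 for all tested genes. Groups did not overlap for 7 of the 10 genes, each time with sh-CFB lower, as was the case for 23.6% of tested genes (33.7% in either direction). The exact permutation test, two-sided, gave 0.1 for each of these 7, which is its lower limit with 3 against 3. The same 5 genes were called after the GC and length correction, where 6.15% of tested genes were lower and 4.93% higher, and without both replicate 1 libraries, where 4.24% were lower and 1.32% higher. Without sh-CFB replicate 2, and likewise without sh-NC replicate 2, 0 of the 10 were called by limma, while 31 and 14 genes in all were then called lower. In these 2 fits 7 and 6 of the 10 had an unadjusted p under 0.05, beside 2495 and 2125 of all 12466 tested genes. In the fit without sh-NC replicate 1 the number called was 3, where 1.65% of tested genes were lower. Without the replicate 2 libraries the median estimate of the 10 was -0.66 and -0.64, that of E2F1 -0.96 and -1.01, and that of TFDP1 -0.92 and -0.95. Without sh-NC replicate 1 some estimates moved more: that of E2F7 went from -0.79 to -0.54 and that of RBL1 from -0.59 to -0.35. With median-of-ratios factors E2F2 and TFDP1 alone were called, where 1.11% of tested genes were lower and 0.545% higher.

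**Figure D1:**
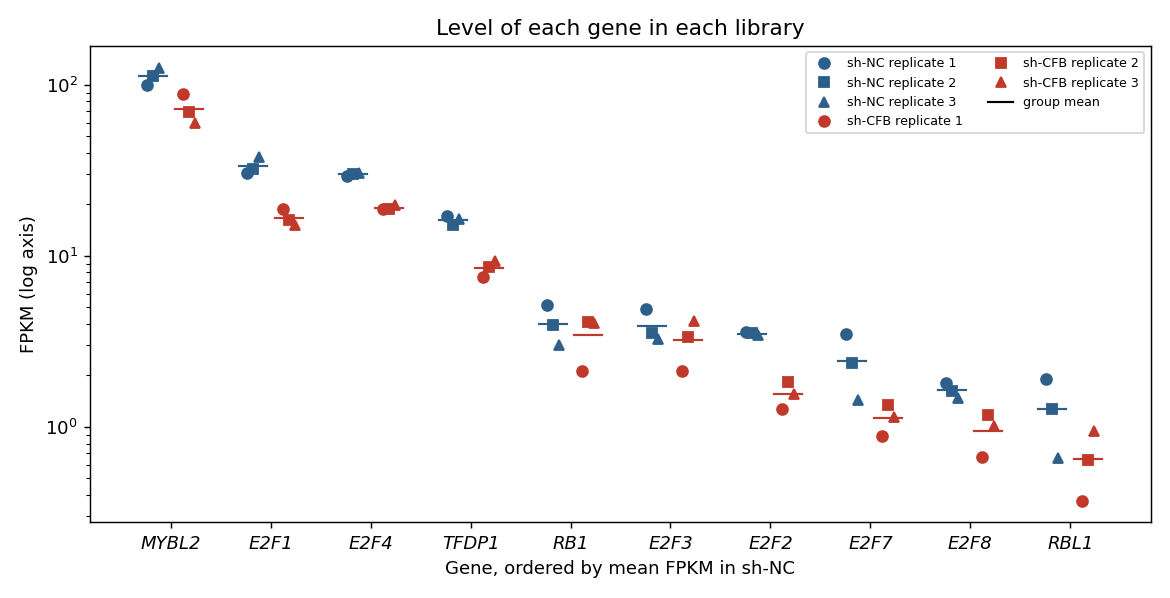
FPKM on a log axis of each of the 10 genes in each library, with sh-NC in blue and sh-CFB in red, a symbol for each replicate number and a line at each group mean. MYBL2 stands highest in both groups, and the 3 red points lie below the 3 blue ones for MYBL2, E2F1, E2F4, TFDP1, E2F2, E2F7 and E2F8.

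The levels covered a wide range. In sh-NC the order by mean FPKM was MYBL2 (113), E2F1 (33.6), E2F4 (29.9), TFDP1 (16.2), RB1 (4.02), E2F3 (3.89), E2F2 (3.51), E2F7 (2.42), E2F8 (1.64) and RBL1 (1.28). The first 4 did not overlap their next neighbour over the 3 libraries, while each neighbouring pair from RB1 to RBL1 did. In sh-CFB E2F4 (19.1) stood before E2F1 (16.7), with overlapping ranges, and the order of the others was unchanged. FPKM is scaled per length, which does not correct for GC content, and these genes ran from 37.3% to 62.5% GC. The order of levels between genes is therefore approximate. These are transcript levels and not protein levels.

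Among the activators, E2F1 and E2F2 fell to about the same degree and E2F3 did not pass. E2F1, a classic partner of RB, is annotated on chromosome 20 (33675683 to 33686404; GENCODE 29, GRCh38). The sh-CFB libraries held 18.8, 16.1 and 15.2 FPKM, against 30.6, 32.3 and 37.7 FPKM in sh-NC. All sh-CFB libraries lay well below all sh-NC libraries. The means were 16.7 ± 1.86 and 33.6 ± 3.73 (SD, n = 3 each), a log2 fold change of -0.98 (SE 0.12, adjusted p = 0.0106 with limma). It was -1.09 after the GC and length correction (adjusted p = 0.00249 with limma) and -1.13 without both replicate 1 libraries (adjusted p = 0.0108 with limma). With median-of-ratios factors E2F1 did not pass (-0.78, adjusted p = 0.103 with limma).

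E2F2, an activator closely related to E2F1, is annotated on chromosome 1 (23506430 to 23531220). The sh-CFB libraries held 1.27, 1.83 and 1.56 FPKM, against 3.57, 3.52 and 3.44 FPKM in sh-NC. The control libraries hardly differed among themselves, with a coefficient of variation of 1.85%, which is below the counting error of 4.02% at the fewest reads (619). The log2 fold change was -0.97 (SE 0.16, adjusted p = 0.0158 with limma). It was -0.93 after the GC and length correction, -0.86 without both replicate 1 libraries and -0.81 with median-of-ratios factors, and passed each time; without sh-NC replicate 1 it did not (adjusted p = 0.0572 with limma), nor without either replicate 2 library.

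E2F3, the activator on chromosome 6 (20401906 to 20493715), went from 4.87, 3.52 and 3.28 FPKM in sh-NC to 2.12, 3.35 and 4.15 in sh-CFB. The groups overlapped, and the lowest and the highest values of the gene came from the 2 replicate 1 libraries. The log2 difference was -0.27 (95% interval -0.83 to 0.30, adjusted p = 0.533 with limma). It changed sign, to 0.03, after the GC and length correction (interval -0.26 to 0.32) and was 0.12 without both replicate 1 libraries (interval -0.24 to 0.48). After the correction the interval of E2F3 did not overlap that of E2F1 (-1.27 to -0.92). On the deposited values the intervals overlapped, that of E2F1 being -1.27 to -0.70. The difference between the changes of E2F1 and E2F3 was not tested.

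TFDP1 encodes DP1, the partner that typical E2F proteins need for DNA binding (chromosome 13, 113584721 to 113641470). The sh-CFB libraries held 7.48, 8.58 and 9.27 FPKM, against 17.0, 15.1 and 16.5 FPKM in sh-NC. The groups were far apart relative to their spread, at 8.45 ± 0.902 FPKM in sh-CFB (SD, n = 3) and 16.2 ± 1.003 in sh-NC (SD, n = 3). The log2 fold change was -0.90 (SE 0.12, adjusted p = 0.0111 with limma). It was smaller after the GC and length correction (-0.61, adjusted p = 0.00978 with limma), -0.79 without both replicate 1 libraries and -0.71 with median-of-ratios factors, and passed each time. Per unit of summed E2F transcript, TFDP1 did not separate the groups: its ratio to the sum of the 6 E2F genes was 0.176, 0.202 and 0.217 in sh-CFB, against 0.231, 0.206 and 0.212 in sh-NC. That sum includes E2F7 and E2F8, whose proteins bind DNA without a DP partner.

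E2F4, the most abundant of the 3 repressor genes, which acts with pocket proteins in the DREAM complex of resting cells, also fell. The gene is on chromosome 16 (67192169 to 67198918). The sh-CFB libraries held 18.8, 18.8 and 19.7 FPKM, against 29.4, 29.9 and 30.3 FPKM in sh-NC. This was the tightest of the 10 genes on the log2 scale, with SDs of 0.04 and 0.02. The log2 fold change was -0.63 (SE 0.09, adjusted p = 0.0120 with limma), -0.65 after the GC and length correction and -0.63 without both replicate 1 libraries. With median-of-ratios factors it was -0.43 and did not pass (adjusted p = 0.152 with limma).

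The atypical repressors E2F7 and E2F8 were lower in every sh-CFB library than in any sh-NC library and did not pass the test. E2F7 (chromosome 12, 77021247 to 77065580) stood at 0.885, 1.352 and 1.14 FPKM in sh-CFB, against 3.47, 2.35 and 1.43 in sh-NC. The spread within sh-NC, a coefficient of variation of 42.4%, was far above the counting error of 5.81% at the fewest reads (296). The log2 difference was -0.79 (95% interval -1.42 to -0.16, adjusted p = 0.121 with limma), and -0.52 after the GC and length correction (adjusted p = 0.0886 with limma). E2F8 (chromosome 11, 19224063 to 19241620) stood at 0.664, 1.18 and 1.01 FPKM in sh-CFB, against 1.81, 1.63 and 1.48 in sh-NC, from 72 to 295 reads. Its log2 difference was -0.57 (interval -1.01 to -0.14, adjusted p = 0.108 with limma), and -0.28 after the correction (adjusted p = 0.141 with limma). The intervals from all 6 libraries exclude 0 for a single gene, but the adjusted values over all tested genes stay above the threshold. Without both replicate 1 libraries both intervals included 0. The difference was then -0.43 for E2F7 (interval -0.95 to 0.10, adjusted p = 0.294 with limma). For E2F8 it was -0.37 (interval -0.77 to 0.04, adjusted p = 0.249 with limma).

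The pocket protein genes did not pass the test. RB1, the retinoblastoma gene, which restrains the activator E2Fs, is on chromosome 13 (48303726 to 48599436). It was expressed in every library, at 2.12, 4.10 and 4.05 FPKM in sh-CFB, against 5.13, 3.92 and 3.02 in sh-NC. The sh-CFB replicate 1 library was lowest and the sh-NC replicate 1 library highest; among the other 4, both sh-CFB values lay above both sh-NC values. The log2 difference was -0.22 (95% interval -0.85 to 0.40, adjusted p = 0.646 with limma), -0.04 after the GC and length correction (interval -0.25 to 0.17) and 0.21 without both replicate 1 libraries (interval -0.16 to 0.59). RBL1, which encodes p107 (chromosome 20, 36996349 to 37095995), stood at 0.371, 0.644 and 0.944 FPKM in sh-CFB, against 1.89, 1.28 and 0.663 in sh-NC, with overlapping groups. Its log2 difference was -0.59 (interval -1.29 to 0.11, adjusted p = 0.259 with limma), -0.37 after the correction and -0.16 without both replicate 1 libraries. RBL1 shares 3.54% of its exon bases with an antisense gene listed at no more than 0.108 FPKM.

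MYBL2 was the most abundant of the 10 genes and, of those that fell, had the adjusted p closest to the threshold. The gene is on chromosome 20 (43667019 to 43716496). The sh-CFB libraries held 88.2, 69.0 and 59.5 FPKM, against 99.7, 112 and 126 FPKM in sh-NC. The groups did not overlap, although sh-CFB replicate 1 and sh-NC replicate 1 came close to each other. The means were 72.2 ± 14.6 and 113 ± 13.1 (SD, n = 3 each), a log2 fold change of -0.65 (SE 0.16, adjusted p = 0.0486 with limma). It was -0.71 after the GC and length correction (adjusted p = 0.0148 with limma) and -0.89 without both replicate 1 libraries (adjusted p = 0.0131 with limma). It did not pass with median-of-ratios factors (-0.44, adjusted p = 0.379 with limma) or with any one library left out other than sh-CFB replicate 1. It also did not pass without a filter, without the intensity trend, with a pseudocount of 0.1 or with voom, and it passed in 7 of 18 alternatives without a replicate block. Relative to E2F1, MYBL2 was higher in sh-CFB: the ratio of the FPKM values was 4.69, 4.28 and 3.91 in sh-CFB, against 3.26, 3.47 and 3.34 in sh-NC.

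**Figure D2:**
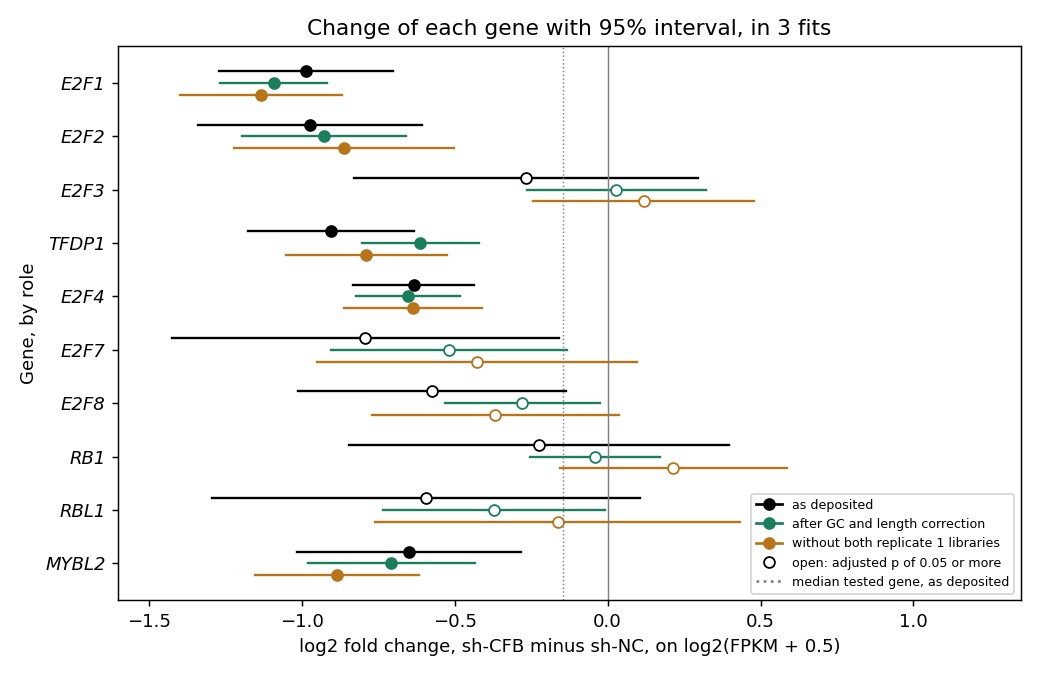
Log2 fold change of each gene, sh-CFB minus sh-NC, with its 95% interval from limma, for the deposited values (black), after the GC and length correction (green) and without both replicate 1 libraries (brown); filled points have an adjusted p under 0.05. E2F1, E2F2, TFDP1, E2F4 and MYBL2 are filled in all 3 fits, and E2F3 and RB1 lie near 0 after the correction.

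The genes that passed were the 5 with the highest GC content. GC content of the longest transcript was 62.5% for E2F1, 60.5% for MYBL2, 59.3% for E2F4, 57.5% for E2F2 and 46.6% for TFDP1. It was 45.9% for E2F8, 45.2% for E2F3, 43.1% for E2F7, 40.01% for RBL1 and 37.3% for RB1, beside a median of 49.3% over tested genes. Each of the 5 with lower GC content had its highest value in sh-NC replicate 1 and its lowest in sh-CFB replicate 1, as did E2F2 and TFDP1, while E2F1 and MYBL2 had their highest value in sh-NC replicate 3 and their lowest in sh-CFB replicate 3. Within sh-NC the log2 range was 0.04 for E2F4, 0.05 for E2F2, 0.17 for TFDP1, 0.30 for E2F1 and 0.34 for MYBL2. It was 0.22 for E2F8, 0.51 for E2F3, 0.68 for RB1 and 1.04 for both E2F7 and RBL1. After the correction the standard error of RB1 went from 0.27 to 0.09 and that of E2F3 from 0.24 to 0.13, and neither gene passed.

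**Figure D3:**
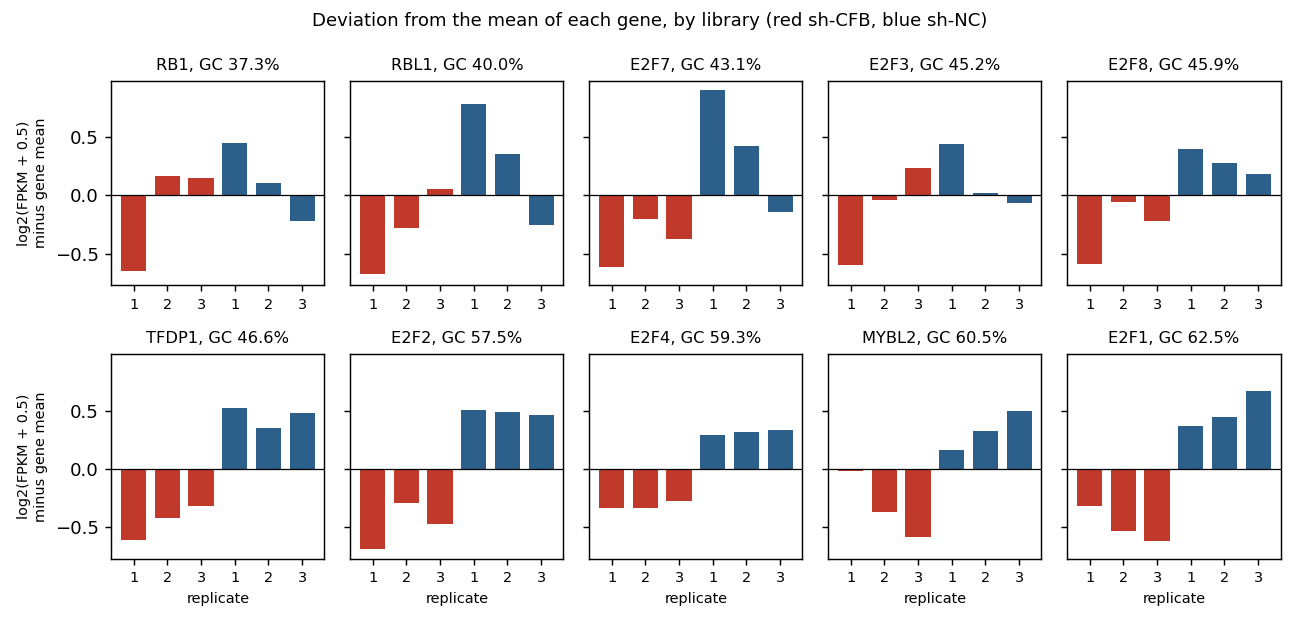
Deviation of log2(FPKM + 0.5) from the mean of each gene over the 6 libraries, with genes ordered by GC content, sh-CFB in red and sh-NC in blue; the numbers under the bars are replicate numbers. The replicate 1 libraries hold both extremes in 7 panels, the 5 of lowest GC content with E2F2 and TFDP1. All red bars are below 0 and all blue bars above it for E2F1, E2F2, E2F4, E2F8, TFDP1 and MYBL2.

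Activators were then set against repressors within each library, a ratio that a scaling of whole libraries cannot move. Both classes were lower in sh-CFB. Summed FPKM of E2F1, E2F2 and E2F3 was 22.2, 21.3 and 20.9 in sh-CFB, against 39.0, 39.4 and 44.5 in sh-NC. Summed FPKM of E2F4, E2F7 and E2F8 was 20.4, 21.3 and 21.8 in sh-CFB, against 34.7, 33.9 and 33.2 in sh-NC. The ratio of activators to repressors was 1.09, 0.999 and 0.959 in sh-CFB, against 1.12, 1.16 and 1.34 in sh-NC. The groups did not overlap, but sh-CFB replicate 1 and sh-NC replicate 1 lay close together. The mean log2 ratio differed by -0.25 between groups, beside SDs of 0.09 in sh-CFB and 0.13 in sh-NC (n = 3 each). It is given as a description with no test, since the genes were chosen with results known. The difference was -0.32 after the GC and length correction, and -0.08 when each class was averaged on the log2 scale, which gives E2F2, E2F3, E2F7 and E2F8 the same weight as E2F1 and E2F4.

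The sums rest mainly on E2F1 and E2F4. E2F1 made up 84.7%, 75.7% and 72.7% of the activator sum in sh-CFB, against 78.4%, 82.1% and 84.9% in sh-NC. E2F4 made up 84.8% to 92.4% of the repressor sum over the 6 libraries. The ratio of E2F1 to E2F4 was 0.999, 0.858 and 0.773 in sh-CFB, against 1.04, 1.08 and 1.25 in sh-NC, and the groups did not overlap. The ratio of the activator sum to the sum of RB1 and RBL1 was 8.90, 4.48 and 4.19 in sh-CFB, against 5.56, 7.57 and 12.1 in sh-NC. Here the groups overlapped, with sh-CFB replicate 1 second highest of the 6 libraries.

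**Figure D4:**
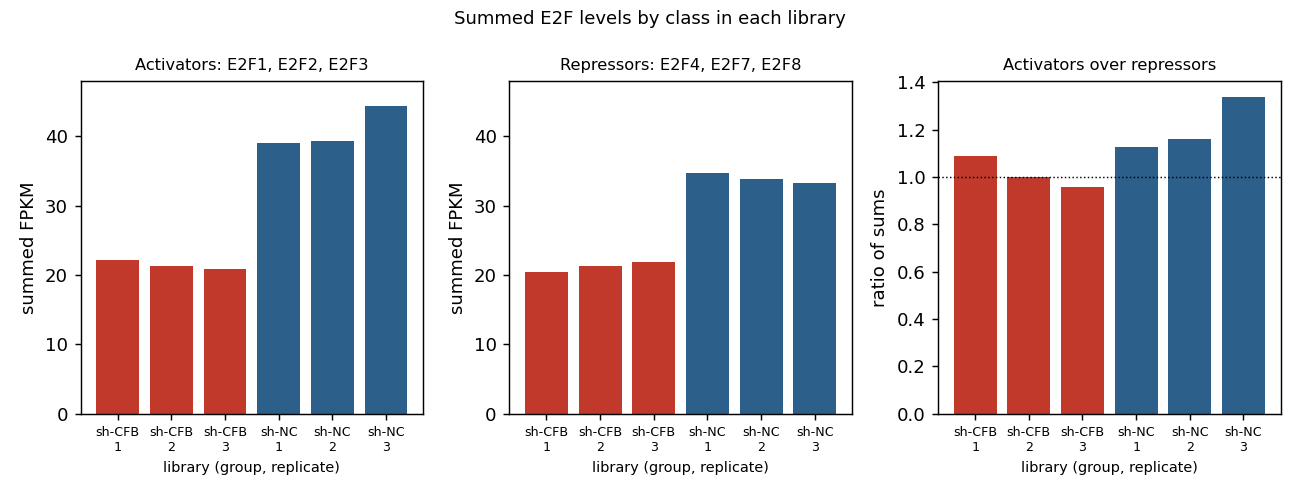
Summed FPKM of the activator genes and of the repressor E2F genes in each library, and the ratio of the sums, with sh-CFB in red and sh-NC in blue; the dotted line marks a ratio of 1. Both sums are lower in all 3 sh-CFB libraries, and the ratio runs from 0.959 to 1.09 in sh-CFB and from 1.12 to 1.34 in sh-NC.

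For each of the 10 genes the 3 most similar tested genes were sought by the root mean square difference of centred log2 values over the 6 libraries. For E2F1 they were ASF1B (0.078), a histone chaperone, CKS1BP7 (0.083), a pseudogene that may share reads with CKS1B, and TUBG1 (0.087), gamma-tubulin. For E2F2 they included CYCS and VCP, for TFDP1 they were PRPS1, TRIP13 and ACAT2, and for E2F4 VOPP1, EIF4A3 and CTNNBL1. For MYBL2 they were TUBA1B, TK1 and RIBC2. For the genes that did not pass they were FAM217B, PWWP2A and L3MBTL3 (E2F3), NIBAN1, POLR1A and HERC2 (E2F7), ERCC3, NUP37 and MLKL (E2F8), KDM1B, PRKAA1 and PIK3CB (RB1) and VEGFA, PKD2 and PCNT (RBL1). Within the set, E2F1 and MYBL2 were nearest to each other (0.186), as were E2F2 and TFDP1 (0.105), E2F3 and RB1 (0.117) and E2F7 and RBL1 (0.194). For E2F1 71 tested genes lay nearer than MYBL2 did, and for E2F3 576 lay nearer than RB1.

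The relatives left out of the set did not pass the test. Of the 7 listed, 6 were in the table and 5 were tested. Of these, 0 passed in limma or voom and 0 had an unadjusted p under 0.05 in either, with a median log2 fold change of -0.20. Over all 12466 tested genes, 3225 had an unadjusted p under 0.05 in limma and 3127 in voom. MYBL1, which encodes A-MYB and had the highest level of them, went from 4.56 ± 1.76 FPKM to 3.50 ± 1.12 (n = 3 each, SD; -0.32, adjusted p = 0.543 with limma). RBL2, which encodes p130, was at 3.34 ± 0.974 FPKM in sh-NC and 3.71 ± 0.680 in sh-CFB, and E2F5 stood at 2.27 ± 0.291 and 2.26 ± 0.264. Without both replicate 1 libraries the difference of MYBL1 changed sign, to 0.19 (adjusted p = 0.553 with limma). After the GC and length correction RBL2 was called higher (0.42, adjusted p = 0.0452 with limma). RBL2 and E2F5 are named after their values were seen.

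Partners of B-MYB and of the pocket proteins were lower in part. Of 7 tested MuvB and DREAM partners 2 fell, 0 rose and 5 did not pass, with a median of -0.46. The shares over all tested genes were 5.71% lower and 1.74% higher. FOXM1, the forkhead factor that follows B-MYB to G2 and mitotic genes, went from 28.0 ± 1.68 FPKM to 18.3 ± 0.503 (n = 3 each, SD; -0.60, adjusted p = 0.0138 with limma). LIN52, the MuvB subunit through which the complex switches partners, went from 3.12 ± 0.418 to 1.65 ± 0.312 FPKM (-0.75, adjusted p = 0.0433 with limma), and did not pass after the GC and length correction (adjusted p = 0.0622 with limma). With median-of-ratios factors neither passed (FOXM1 -0.40, adjusted p = 0.158; LIN52 -0.59, adjusted p = 0.0720, both with limma). FOXM1 also did not pass without sh-NC replicate 1 or either replicate 2 library, nor LIN52 with any library left out. Of 6 tested factors of E2F turnover 1 fell: CCNF, which encodes cyclin F, a ubiquitin ligase subunit for E2F proteins (-0.57, adjusted p = 0.0445 with limma). CCNF did not pass with median-of-ratios factors (-0.38, adjusted p = 0.310 with limma), with quantile normalization, with voom or with any one library left out. It also did not pass without a filter or without the intensity trend.

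The kinases that act on RB and their inhibitors moved in both directions. Of 15 tested genes 3 fell, 2 rose and 10 did not pass, with a median of -0.15, the same as that of all tested genes. Beside this, 5.71% of all tested genes were lower and 1.74% higher. CDC25A, the phosphatase that activates CDK2, went from 6.88 ± 0.663 FPKM to 3.15 ± 0.636 (n = 3 each, SD; -1.03, adjusted p = 0.0156 with limma), and CDK2 from 8.65 ± 0.734 to 4.91 ± 0.665 (-0.76, adjusted p = 0.0217 with limma). CDKN1C, which encodes the CDK inhibitor p57, rose from 3.29 ± 0.813 to 6.58 ± 0.330 FPKM (0.92, adjusted p = 0.0251 with limma). CDKN2A, which encodes the inhibitor of CDK4 and CDK6 named p16, and ARF, rose from 32.0 ± 4.70 to 48.4 ± 5.70 FPKM (0.59, adjusted p = 0.0426 with limma). Neither CDKN1C nor CDKN2A passed with median-of-ratios factors (1.10, adjusted p = 0.0569, and 0.80, adjusted p = 0.117, with limma), without a filter, or with any one library left out other than sh-NC replicate 3. CDC25A and CDK2 passed with those factors and did not pass without either replicate 2 library; CDK2 also did not pass without sh-CFB replicate 3 or sh-NC replicate 1.

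Cofactors through which E2F and RB proteins act on chromatin were tested in a pair of lists. Of 14 tested corepressor genes 2 fell and 12 did not pass, with a median of -0.40. Among all tested genes 5.71% were lower and 1.74% higher. HDAC1, a histone deacetylase, went from 60.5 ± 1.74 FPKM to 39.1 ± 5.07 (n = 3 each, SD; -0.63, adjusted p = 0.0209 with limma), and KDM1A, a histone demethylase, from 27.0 ± 0.819 to 19.2 ± 1.86 (-0.49, adjusted p = 0.0341 with limma). KDM1A did not pass after the GC and length correction (adjusted p = 0.103 with limma) or with any library left out, and neither passed with median-of-ratios factors. HDAC1 did not pass without sh-NC replicate 1 or either replicate 2 library. HDAC1 and KDM1A also did not pass without a filter or without the intensity trend. Of 9 tested coactivator genes 0 passed in limma or voom, 2 had an unadjusted p under 0.05 in each, and the median was -0.30. An unadjusted p under 0.05 was also reached by 3225 of all 12466 tested genes in limma and 3127 in voom. After the GC and length correction 1 was called lower, KAT2A, a histone acetyltransferase (-0.33, adjusted p = 0.0482 with limma). The most abundant, CARM1, an arginine methyltransferase, was at 44.2 ± 1.70 FPKM in sh-NC and 47.5 ± 1.91 in sh-CFB.

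Known targets of the regulators were lower in larger number for S phase entry than for mitosis, as counts. Over all tested genes 5.71% were lower and 1.74% higher. Of 42 tested G1/S targets of E2F 28 fell (66.7%), 0 rose and 14 did not pass, with a median log2 fold change of -0.83. FEN1, the flap endonuclease, went from 29.3 ± 1.38 FPKM to 9.32 ± 1.40 (n = 3 each, SD; -1.61, adjusted p = 0.00613 with limma), and MCM3, a subunit of the replicative helicase, from 34.2 ± 3.60 to 11.4 ± 1.81 (-1.55, adjusted p = 0.00669 with limma). CDT1, the licensing factor, had the one positive estimate among the 42 (0.32, adjusted p = 0.394 with limma), named after its value was seen. Of 36 tested G2/M targets of B-MYB and FOXM1 11 fell (30.6%), 0 rose and 25 did not pass, with a median of -0.48. CCNB1, which encodes cyclin B1, went from 89.6 ± 8.92 FPKM to 45.7 ± 5.62 (n = 3 each, SD; -0.97, adjusted p = 0.0111 with limma), and KIF20A, a mitotic kinesin, from 22.4 ± 0.971 to 11.8 ± 1.497 (-0.91, adjusted p = 0.0115 with limma). Without sh-CFB replicate 2 and without sh-NC replicate 2, in that order, fewer genes passed in both lists while the medians stayed close. The G1/S count was 9 and 6, with 34 and 32 at an unadjusted p under 0.05 and medians of -0.87 and -0.82. The G2/M count in limma was 0 and 0, with 18 and 15 at an unadjusted p under 0.05 and medians of -0.53 and -0.48. Of all 12466 tested genes, 31 and 14 were then called lower, and 2495 and 2125 had an unadjusted p under 0.05. Without both replicate 1 libraries the counts were 28 and 10, where 4.24% of all tested genes were lower. With median-of-ratios factors the counts were 17 and 2, where 1.11% of all tested genes were lower. FEN1 and MCM3 passed in every alternative run without a replicate block, KIF20A in all but those without a replicate 2 library, and CCNB1 in all but those and median-of-ratios factors (-0.76, adjusted p = 0.0632 with limma). In bulk RNA, a smaller share of cells in a cell cycle phase and less transcript per cell cannot be told apart. The difference between the lists was not tested.

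**Figure D5:**
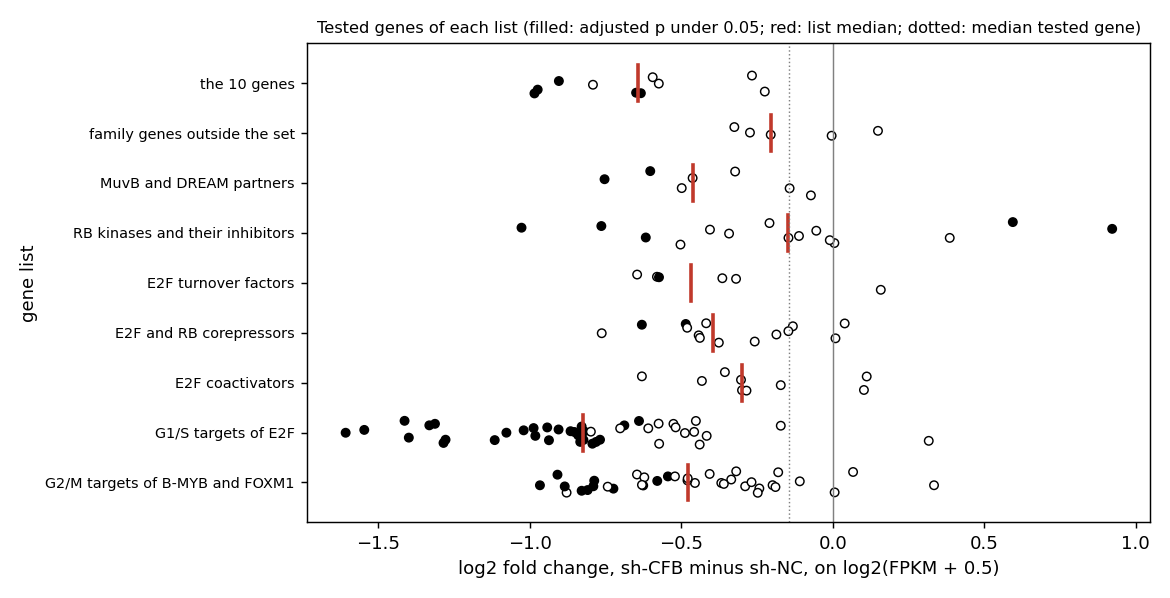
Log2 fold change of every tested gene in each list, with the 10 regulators on top; filled points have an adjusted p under 0.05 in limma, red bars are list medians and the dotted line is the median tested gene at -0.15. The G1/S targets lie farthest to the left with a median of -0.83, and the lists of relatives and coactivators hold no filled point.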

How the data were processed

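Expression was taken from the deposited table of the authors' FPKM values (reads scaled by gene length and library size), 1 column per library. The submitters' processing notes name FastQC 0.11.9, Trimmomatic 0.39, STAR 2.7.3a, featureCounts 2.0.1 and the build GRCh38; the sources used here do not give the annotation release, the strand setting or the formula of FPKM. Whole reads and library totals were recovered from the steps between FPKM values (tolerance 0.02 reads); counting errors derived from them cover counting only. Symbols, coordinates and GC content came from the supplied name table and GENCODE 29. The fit used limma 3.58.1 in R 4.3.3 (group only, intensity trend) on log2(FPKM + 0.5) where the mean over libraries reached 0.5 FPKM, with Benjamini-Hochberg adjustment at 0.05 over all tested genes. It was tested on simulated counts with the same spread beyond counting for every gene. The simulation held no differences between libraries tied to GC content, so it does not cover those seen here. The GC and length correction subtracts a smooth curve (loess, span 0.3) from each library's deviations. Python 3.11.15 did the rest.

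The 10 genes, the lists and the tests were chosen with earlier results of these data known. Named genes were the 10 members, up to 2 called genes per direction in each other list (or its most abundant tested gene where none was called) and the 3 nearest genes to each member. Other settings tried were the pseudocount, the filter, the scaling, voom on recovered reads, the trend, a replicate block and leaving out libraries. Of the nearest genes, 1 is not reported here.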

Additional observations from a re-analysis of the deposited data

How the results depend on the processing

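Direction was stable for 8 of the 10 regulators over all alternatives run. E2F3 reversed to 0.029 after the GC and length correction (also with the replicate block) and to 0.12 without both replicate 1 libraries, and RB1 to 0.21 without both and to 0.04 without sh-CFB replicate 1. MYBL1 reversed to 0.19 without both. With libraries left out, the values ran from -0.39 to 0.21 for RB1 and from -0.56 to 0.19 for MYBL1. KRT18 reversed to 0.0073 after the correction (with and without the block), to 0.12 with median-of-ratios factors, to 0.13 with voom and those factors, and to 0.04 and 0.051 without sh-CFB and sh-NC replicate 3, and ran down to -0.41 with libraries left out. Regulators called lower, 5 in the report, numbered 2 with median-of-ratios factors, 2 with voom and those factors, and 0 to 5 with single libraries left out; none was called higher in any setting. G1/S targets called lower numbered 17 with median-of-ratios factors and 6 to 28 with single libraries left out. G2/M targets called lower numbered 2 with those factors, 4 with voom and those factors, 6 without a filter and 0 to 10 with single libraries left out. Genes called in all, 217 higher and 712 lower in the report, numbered 68 and 138 with median-of-ratios factors, 126 and 192 with voom and those factors, 68 and 256 without a filter, and 96 and 435 without the intensity trend. Higher calls numbered 611 after the GC and length correction and 465 after quantile normalization. With single libraries or both replicate 1 libraries left out, 6 to 165 genes were higher and 14 to 529 lower. The log2 difference of activators against repressors was -0.075 with class means of log2 values and -0.30 to -0.17 with single libraries left out; its versions with left-out libraries and with the GC and length correction were added after seeing the data. The causes were not tested.

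Replicate numbers showed no pairing in a check across genes. Deviations of same-numbered libraries from their group means correlated at -0.54, 0.07 and -0.45, and not every sample correlated best with its own number. Such deviations also carry the differences between libraries that follow GC content, so the check does not settle whether replicates were paired. With the replicate block, and with the block and the GC and length correction, 0 genes were called higher and 0 lower, so that 0 regulators, 0 G1/S targets and 0 G2/M targets were called by limma (E2F1 adjusted p = 0.158 with the block). At an unadjusted p under 0.05 the block left 485 genes higher and 1285 lower, 6 regulators, 31 G1/S targets and 15 G2/M targets; with the correction as well these were 1117, 1320, 6, 31 and 17. The fewest reads of RBL1 and E2F8 in a library were 58 and 72, where counting error alone is 13.1% and 11.8%, below their spread in sh-CFB (43.9% and 27.7%).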

Other observations

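PRC1 and NUSAP1, a mitotic crosslinker and a spindle protein listed among the G2/M targets, stood under the filter on low values. PRC1 was listed at 0.0552 to 0.147 FPKM and NUSAP1 at 0.0498 to 0.194 FPKM over the 6 libraries. In GENCODE 29, 58.4% of the exon bases of PRC1 and 62.2% of those of NUSAP1 also belong to another gene. Of the 10 regulators 8 share none and RBL1 shares 3.54%. Whether the overlap bears on the low values was not tested. UBE2C, a ubiquitin-conjugating enzyme of mitotic exit in the same list, stood at 382, 296 and 290 FPKM in sh-CFB, against 220, 256 and 289 FPKM in sh-NC, and did not pass the test (0.33, adjusted p = 0.205 with limma). These genes were chosen after their values were seen.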
